A study of Mus musculus with 6 samples.

Results

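The CC chemokines and CX3CL1 are described here in 4T1 cells, a mouse mammary carcinoma line, through 10 genes (Ccl2, Ccl3, Ccl4, Ccl5, Ccl7, Ccl9, Ccl17, Ccl20, Ccl25 and Cx3cl1). They were taken by gene symbol from a table of 22105 genes, and all 10 were found once. For 24 h the cells were exposed either to nanoparticles named CM-PEG-PLGA@DOX/R848, carrying the equivalent of 2 µg/mL doxorubicin (3 libraries), or to phosphate-buffered saline (PBS, 3 libraries). DOX is doxorubicin, an anthracycline that damages DNA, and R848 is resiquimod, an agonist of endosomal toll-like receptors. Both groups were cultures of a single cell line, and the labels name no leukocytes added to them. Particles without cargo, and either drug alone, were not analysed here. The labels do not tell whether the 3 libraries of a group are separate cultures, and all p-values therefore rest on a spread that may be technical.

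Chemokines are small secreted proteins that guide leukocytes through G protein-coupled receptors. They are classed by the spacing of their first cysteines, which are adjacent in CC chemokines and separated by 3 residues in CX3CL1. CX3CL1 is also the member that is made as a membrane protein, with its chemokine domain on a mucin stalk, and is released by the sheddases ADAM10 and ADAM17. Inflammatory CC chemokine genes are known targets of NF-kB and, for some such as Ccl5, of interferon regulatory factors, and CCL2 is known in mammary tumours as an attractant of monocytes that carry CCR2.

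The coding sequence around these cysteines is shown for 9 members because it is the feature that places each gene in its class. Each line gives 30 bases of the principal coding transcript in GENCODE M21 (GRCm38), 5′ to 3′ on the coding strand, with the cysteine codons in capitals.
Ccl2: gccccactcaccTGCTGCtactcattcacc
Ccl7: aatgcatccacaTGCTGCtatgtcaagaaa
Ccl20: agcaactacgacTGTTGCctctcgtacata
Ccl5: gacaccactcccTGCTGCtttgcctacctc
Ccl9: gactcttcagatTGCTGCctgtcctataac
Ccl4: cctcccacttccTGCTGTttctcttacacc
Ccl17: gtaggccgagagTGCTGCctggattacttc
Ccl25: gcctttgaagacTGCTGCctgggttaccag
Cx3cl1: ggcatgacgaaaTGCgaaatcatgTGCgac
The 8 CC genes shown had 0 codons between the capitals and Cx3cl1 had 3, the spacings that were searched for in each class. Cx3cl1 also had the longest coding sequence, 1185 bases, against 273 bases in Ccl5, the shortest, and 444 bases in Ccl2.

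Expression was read as FPKM, fragments scaled to transcript length and to the fragments mapped in the library, which allows levels of different genes to be compared. The unit was inferred from the values, and the depth of the libraries is unknown, because the table gives no counts. The test was limma on log2(FPKM + 1), run on the 10863 genes that reached 1 FPKM in at least 3 libraries. Of the 10 members 7 were tested. Ccl3, Ccl4 and Ccl17 were below this level and are given by their values. Of the 7 tested members 6 passed at an adjusted p under 0.05, while 86.4% of all tested genes passed, so that share is close to the background. The members differed in direction, with 5 higher after nanoparticles (background 40.5% of tested genes; 1 of them, Ccl9, was tested only through its nanoparticle libraries), 1 lower (background 46%) and 1 that did not pass. Their median log2 fold change was 0.46, beside -0.058 over all tested genes. Ccl9 was bound to come out higher, which enters this median and the 2-fold class named next. Ccl20, an attractant of CCR6-bearing lymphocytes and dendritic cells, and Ccl9, a mouse chemokine that acts on CCR1, were the 2 members called at least 2-fold higher, a class that held 10.2% of tested genes. Ccl5, a T cell attractant, was the member that fell.

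**Figure D1:**
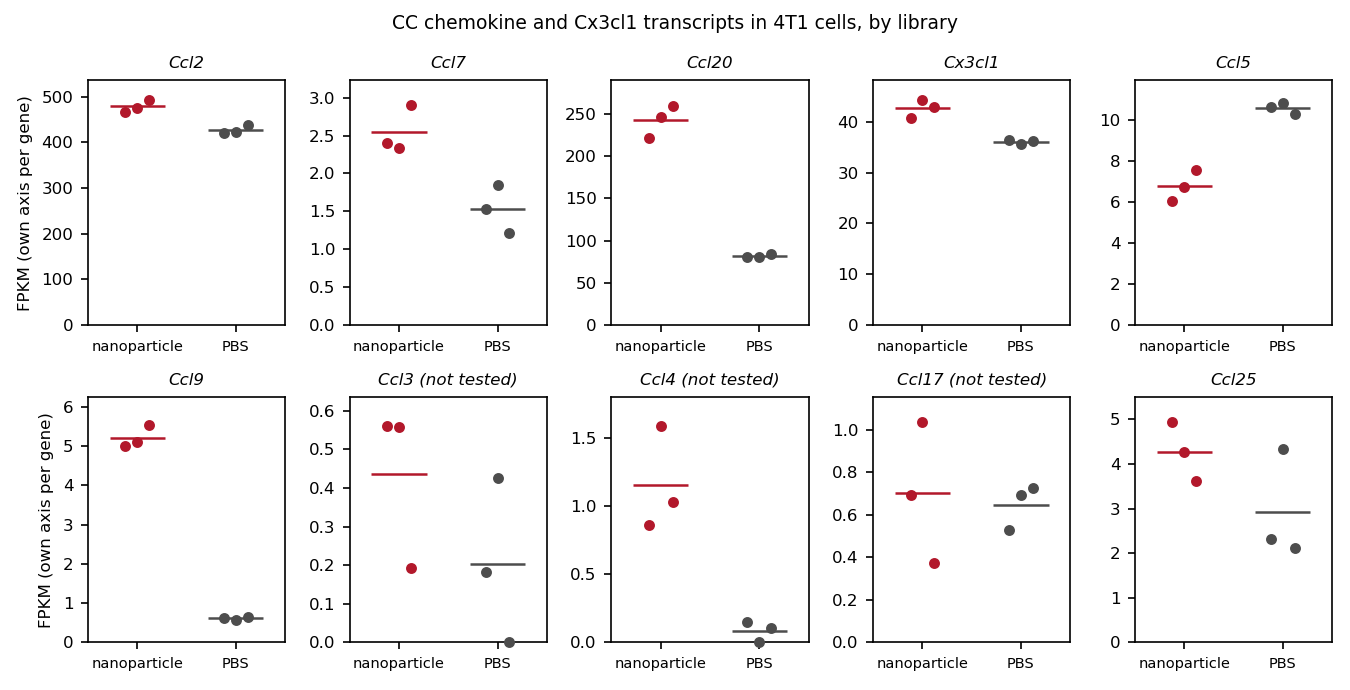
FPKM of each of the 10 members in the 3 nanoparticle libraries (red) and the 3 PBS libraries (grey), with a bar at the group mean and a separate axis from 0 for each gene. Ccl20, Ccl9 and Ccl4 show the widest separation upward, Ccl5 lies lower with nanoparticles, and the libraries of Ccl3, Ccl17 and Ccl25 overlap.

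Ccl20 was the member with the largest gain in transcript level. It stood at 221, 246 and 259 FPKM in the nanoparticle libraries, against 81.0, 80.6 and 84.2 FPKM in the PBS libraries. The groups did not overlap, and the nanoparticle libraries were more spread out than the PBS libraries. The mean level was 242 ± 19.5 FPKM with nanoparticles and 81.9 ± 1.96 FPKM with PBS (SD, n = 3 each), a ratio of 2.96. The log2 fold change was 1.55 (standard error 0.05, adjusted p = 1.04e-08, limma), and 3.65% of tested genes had a higher one. Within each library Ccl20 exceeded 97.4% to 97.8% of the tested genes with nanoparticles and 93.5% to 93.7% with PBS, a placement that no scaling of a library can change.

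Ccl2, the monocyte chemoattractant, was the most abundant member in every library. Its values were 468, 476 and 493 FPKM with nanoparticles and 421, 422 and 438 FPKM with PBS. Means were 479 ± 13.2 FPKM with nanoparticles and 427 ± 9.24 FPKM with PBS (SD, n = 3 each). The groups did not overlap, but they lay close together: the ratio of the means was 1.12. The log2 fold change of 0.17 passed (standard error 0.03, adjusted p = 0.000402, limma), although only 15.9% of tested genes had a smaller change in either direction. On the TPM scale, where each library is divided by its own sum, the log2 fold change was 0.011 (95% interval -0.052 to 0.074, adjusted p = 0.717, limma). With median-of-ratios scaling it was 0.23 (adjusted p = 2.58e-05, limma), so the rise of Ccl2 depends on the scaling. The summed FPKM over all features was 468387 to 472870 with nanoparticles and 421544 to 425231 with PBS. The median log2 fold change was -0.058 over the 10863 genes tested on FPKM and -0.19 over the 11508 tested on the TPM scale. The filter and pseudocount of 1 were there applied to TPM values, which are larger numbers than FPKM, so the 2 medians also differ in these. Ccl2 exceeded 98.8% to 98.9% of the tested genes in nanoparticle libraries and 98.9% to 99.0% in PBS libraries. An antisense gene annotated as protein coding, Gm17268, spans the whole of Ccl2, and the sources used here do not say whether the libraries mark strand.

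Ccl7, another monocyte chemoattractant that signals through CCR2, was far less abundant, at 0.00492 to 0.00589 of the Ccl2 level with nanoparticles and 0.00277 to 0.00437 with PBS. It was found at 2.41, 2.34 and 2.91 FPKM with nanoparticles and at 1.54, 1.84 and 1.21 FPKM with PBS. The groups did not overlap, with a log2 fold change of 0.49 (standard error 0.10, adjusted p = 0.00143, limma). On the TPM scale the log2 fold change was 0.48 and passed (adjusted p = 0.00596, limma). The pseudocount of 1 weighs less on the larger TPM values, so the sizes on the FPKM and TPM scales are not directly comparable. With a pseudocount of 0.1 on FPKM it was 0.71.

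Cx3cl1, whose product binds CX3CR1 on monocytes, natural killer cells and T cells, was the third most abundant member. It stood at 40.7, 44.2 and 42.9 FPKM with nanoparticles, against 36.4, 35.5 and 36.1 FPKM with PBS. All 3 nanoparticle libraries were above all PBS libraries, and the log2 fold change was 0.24 (standard error 0.04, adjusted p = 0.00016, limma). On the TPM scale it was 0.086 and missed the threshold (adjusted p = 0.058, limma). With median-of-ratios scaling it was 0.30 and passed (adjusted p = 1.74e-05, limma). Like Ccl2, Cx3cl1 held nearly the same place within the libraries, above 81.8% to 83.3% of tested genes with nanoparticles and 81.2% to 81.9% with PBS.

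**Figure D2:**
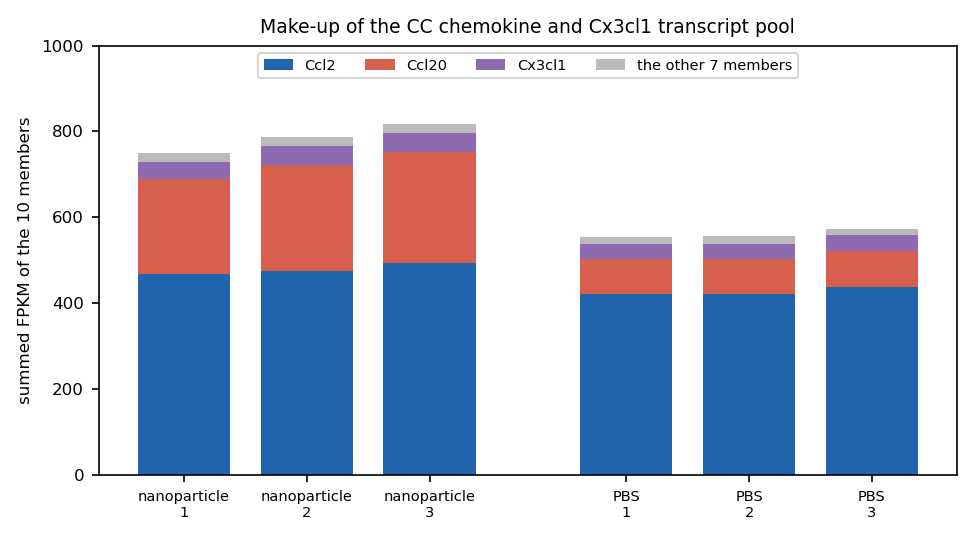
Summed FPKM of the 10 members in each library, stacked by Ccl2, Ccl20, Cx3cl1 and the other 7 members, with nanoparticle libraries on the left and PBS libraries on the right. The taller nanoparticle bars come mostly from the Ccl20 segment, while the Ccl2 segment is of similar height in all 6 libraries.

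Together the 10 members summed to 785 ± 33.6 FPKM with nanoparticles and 561 ± 10.03 FPKM with PBS (SD, n = 3 each). Ccl2 made up 60.4% to 62.4% of that sum with nanoparticles and 75.8% to 76.4% with PBS. Ccl20 made up 29.5% to 31.7% with nanoparticles and 14.5% to 14.7% with PBS. The ratio of Ccl20 to Ccl2 within a library, in which the scaling of that library cancels, was 0.472, 0.517 and 0.525 with nanoparticles and 0.192, 0.191 and 0.192 with PBS. The pool was therefore more evenly split between these genes after nanoparticles, in all 3 libraries. These values are averages over a culture, in which fewer cells that make a transcript and less transcript per cell cannot be told apart.

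Ccl5, which attracts T cells, monocytes and natural killer cells, went against the other tested members. It was measured at 6.05, 6.74 and 7.59 FPKM in nanoparticle libraries, against 10.7, 10.8 and 10.3 FPKM in PBS libraries. Every nanoparticle library was below every PBS library, with a log2 fold change of -0.58 (standard error 0.07, adjusted p = 3.2e-05, limma). A lower log2 fold change was held by 26.9% of tested genes. On the TPM scale the log2 fold change was -0.76 and it passed there too (adjusted p = 5.49e-06, limma).

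Ccl9 had the largest log2 fold change of the members. It was found at 4.99, 5.10 and 5.53 FPKM with nanoparticles and at 0.626, 0.582 and 0.642 FPKM with PBS. Because all PBS libraries were under 1 FPKM, Ccl9 was tested only through its nanoparticle libraries and was bound to come out higher. Its log2 fold change was 1.94 (standard error 0.07, adjusted p = 3.05e-09, limma), the ratio of the means was 8.44, and 1.98% of tested genes had a higher log2 fold change. Ccl5 and Ccl9 lie 42.4 kb apart on the same strand and moved in opposite directions. The ratio of Ccl9 to Ccl5 within a library was 0.825, 0.756 and 0.728 with nanoparticles and 0.0587, 0.0537 and 0.0623 with PBS.

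Ccl25, a chemokine of thymus and small intestine that acts on CCR9, did not pass. Its values were 4.95, 4.27 and 3.62 FPKM with nanoparticles and 2.33, 4.33 and 2.12 FPKM with PBS. The PBS library 2 lay among the nanoparticle libraries and made the groups overlap. The log2 fold change was 0.46 with a 95% interval from -0.043 to 0.97 (adjusted p = 0.0764, limma), an interval that includes no change. The pseudocount of 1 understates changes at this level, so the upper limit is not a fold change of FPKM. Without PBS library 2 the log2 fold change was 0.70 and passed (adjusted p = 0.000229, limma). Without any other library it was 0.32 to 0.55 and did not pass (adjusted p = 0.0739 to 0.212, limma). Ccl25 shares 204 bases of its annotated span with Elavl1 on the other strand.

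**Figure D3:**
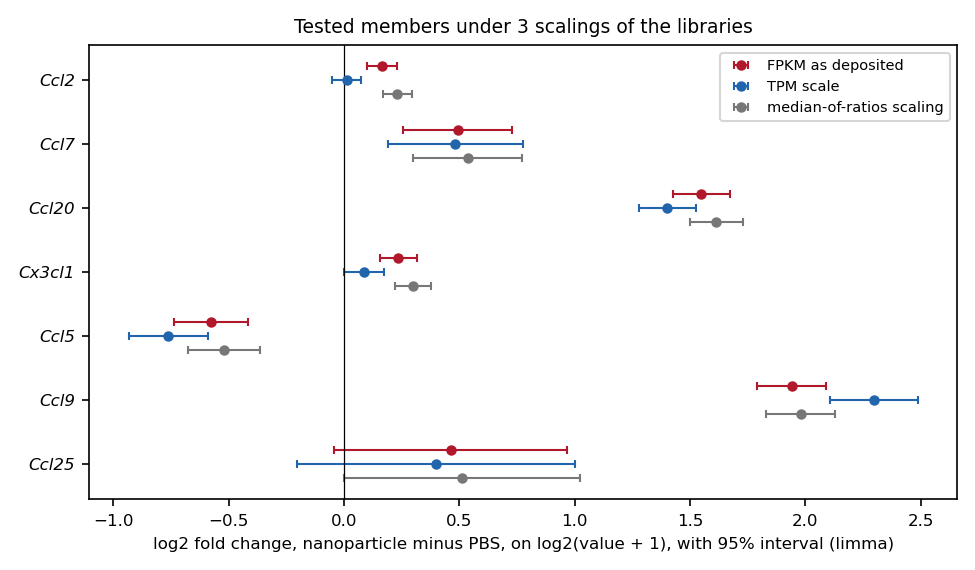
Log2 fold change (nanoparticle minus PBS, on log2(value + 1)) of the 7 tested members with 95% intervals from limma, for FPKM as deposited (red), the TPM scale (blue) and median-of-ratios scaling (grey). Ccl20 and Ccl9 lie far above 0 and Ccl5 below 0 under each, while Ccl2 and Cx3cl1 reach 0 on the TPM scale. The interval of Ccl25 includes 0 on the TPM scale and for FPKM as deposited.

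Ccl3 and Ccl4, inflammatory chemokines that are typical of activated macrophages, were near the floor of the table. Ccl4 was at 0.860, 1.58 and 1.03 FPKM with nanoparticles and at 0.153, 0 and 0.102 FPKM with PBS. Its groups did not overlap, and the exact two-sided permutation test gave p = 0.1, the smallest that 3 libraries against 3 allow. Of the 9261 untested genes above 0 in some library, 48.9% were likewise higher in all nanoparticle libraries than in any PBS library, so Ccl4 shares its direction with many genes of low level. With no filter on low values Ccl4 passed with a log2 fold change of 0.98 (adjusted p = 0.000322, limma). Ccl3 was at 0.560, 0.557 and 0.193 FPKM with nanoparticles and at 0.182, 0.425 and 0 FPKM with PBS, and its groups overlapped (exact two-sided permutation p = 0.2). Ccl17, a ligand of CCR4 made by dendritic cells, was at 0.694, 1.03 and 0.373 FPKM with nanoparticles and at 0.528, 0.691 and 0.726 FPKM with PBS. Its groups overlapped as well (exact two-sided permutation p = 0.9).

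The order of the members by mean FPKM was Ccl2, Ccl20, Cx3cl1, Ccl5, Ccl9, Ccl25, Ccl7, Ccl4, Ccl17 and Ccl3 with nanoparticles. The libraries of neighbours in that order did not overlap, except between Ccl4 and Ccl17 and between Ccl17 and Ccl3. With PBS the order was Ccl2, Ccl20, Cx3cl1, Ccl5, Ccl25, Ccl7, Ccl17, Ccl9, Ccl3 and Ccl4. There, neighbours overlapped between Ccl17 and Ccl9 and between Ccl3 and Ccl4. Of the 10 members, 7 had groups that did not overlap, as did 87.2% of tested and 52.6% of untested genes above 0.

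**Figure D4:**
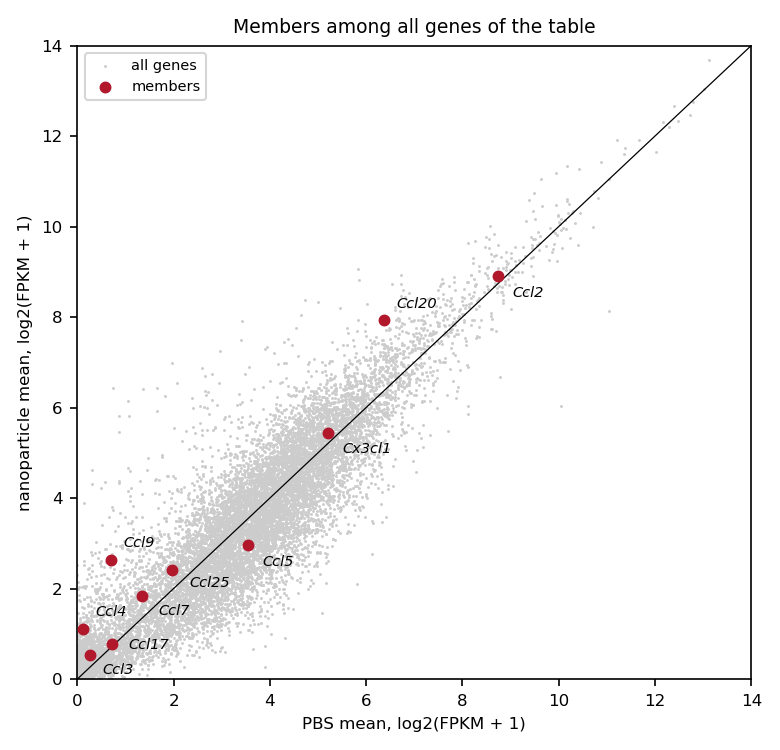
Mean level with nanoparticles (vertical axis) against mean level with PBS (horizontal axis), both as log2(FPKM + 1), for all genes of the table (grey) and the 10 members (red), with the line of equal levels. Ccl2 and Cx3cl1 lie close to the line, Ccl20 and Ccl9 above it and Ccl5 below it.

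The members fall into gene clusters (GRCm38, GENCODE M21). Ccl2 (chromosome 11, 82035571 to 82037453) and Ccl7 (82045712 to 82047525) lie 8.26 kb apart. The other group on chromosome 11 holds Ccl5 (83525778 to 83530518), Ccl9 (83572919 to 83578636), Ccl3 (83647844 to 83649355) and Ccl4 (83662584 to 83664683). On chromosome 8, Cx3cl1 (94772009 to 94782427) and Ccl17 (94810453 to 94812036) lie 28.03 kb apart, and Ccl25 lies farther away (4325210 to 4360020). Ccl20 stands alone on chromosome 1 (83116766 to 83119167). Levels within a cluster ranged widely. Ccl11 and Ccl12, downstream of Ccl7, were at 0 in all PBS libraries, and a single nanoparticle library listed Ccl11 at 0.260 FPKM. Ccl6, which lies 9.25 kb from Ccl9 and encodes a related chemokine, was at 0.858, 0.672 and 0.627 FPKM with nanoparticles and at 0, 0.0302 and 0.0783 FPKM with PBS.

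Besides the members, the table held 18 other CC ligand genes, several of them near-identical copies of Ccl21 and Ccl27. None reached 1 FPKM in any library. Their summed level was 1.42 to 1.92 FPKM with nanoparticles and 0 to 0.0783 FPKM with PBS, so the 10 members made up nearly the whole CC ligand signal. Across the table, genes above 0 numbered 18319 to 18509 in nanoparticle libraries and 13544 to 13808 in PBS libraries. Of the 7328 genes at 0 in every PBS library, 2632 were above 0 in every nanoparticle library. The part of this shift in the values of Ccl3, Ccl4 and Ccl6 was not tested.

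Promoter sequence was matched in the RefSeq table (GRCm38.p6) for 6 of the 10 members, and Ccl2, Ccl4, Ccl5 and Ccl7 were not matched. Each window runs from 250 bases before the annotated start to 50 bases after it. The windows of Ccl20 and Ccl9, which rose most, and of Cx3cl1, which changed little, are shown 5′ to 3′ on the gene's strand. Capitals mark matches to the NF-kB motif, to the AP-1 motif TGANTCA, to the interferon-stimulated response element (GAAA, any 2 bases, GAAA; these 3 motifs on both strands) and to TATAAA on the gene's strand.
Ccl20, chr1:83116516-83116815, plus strand: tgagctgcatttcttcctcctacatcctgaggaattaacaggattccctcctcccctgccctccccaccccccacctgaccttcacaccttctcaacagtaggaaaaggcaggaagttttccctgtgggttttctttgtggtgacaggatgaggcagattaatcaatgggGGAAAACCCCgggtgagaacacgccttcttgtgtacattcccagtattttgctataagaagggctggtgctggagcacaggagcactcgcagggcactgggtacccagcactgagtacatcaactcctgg
Ccl9, chr11:83578587-83578886, minus strand: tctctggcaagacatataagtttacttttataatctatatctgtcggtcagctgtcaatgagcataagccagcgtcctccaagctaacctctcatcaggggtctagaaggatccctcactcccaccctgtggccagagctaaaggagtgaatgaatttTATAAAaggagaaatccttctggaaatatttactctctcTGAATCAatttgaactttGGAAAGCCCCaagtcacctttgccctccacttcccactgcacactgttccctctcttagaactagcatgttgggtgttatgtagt
Cx3cl1, chr8:94771930-94772229, plus strand: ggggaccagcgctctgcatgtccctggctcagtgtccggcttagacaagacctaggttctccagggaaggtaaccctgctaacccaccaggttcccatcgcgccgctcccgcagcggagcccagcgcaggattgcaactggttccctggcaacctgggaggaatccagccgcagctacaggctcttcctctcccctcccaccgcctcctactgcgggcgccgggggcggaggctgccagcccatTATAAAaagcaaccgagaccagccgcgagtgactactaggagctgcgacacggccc
Ccl20 and Ccl9 each held 1 NF-kB match, at -80 to -71 and at -35 to -26 from the start. They were the 2 windows with such a match among the 7 of the members (Ccl25 has 2 starts), and 4.51% of all 32851 promoter windows held it. Ccl9 also held an AP-1 match at -53 to -47, a motif found in 7.81% of windows. TATAAA was in 3 of the 7 windows, those of Ccl9, Cx3cl1 and one start of Ccl25, and in 8.32% of all windows. The response element was in 0 of the 7 windows, and in 3.44% of all. No match overlapped another. A match describes letters only, and the matched genes were too few for any comparison with their expression.

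The pentamer ATTTA, the core of AU-rich elements that shorten the life of cytokine mRNAs, was counted in the 3′ UTR of the same transcripts as above. Ccl20 held 5 in 450 bases, Ccl3 held 5 in 409 bases and Ccl4 held 2 in 302 bases. Ccl9 held 5 in 2465 bases, Ccl7 held 2 in 435 bases, and Ccl2 and Cx3cl1 held 1 each. Ccl5, Ccl17 and Ccl25 held 0. At least 1 was found in 67.6% of 10671 tested genes, at a median of 1.3 per kb, beside 11.1 per kb in Ccl20 and 12.2 per kb in Ccl3. Ccl20, which rose, and Ccl3, which was near the floor, thus had the densest pentamers. None were held by Ccl5, which fell, by Ccl25, which did not pass, or by Ccl17, which was not tested. A link between pentamers and expression was not tested.

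Transcripts of the receptors for these ligands were at or near 0 in both groups. Of 11 CC and CX3C receptor genes, 9 were not tested and stayed at or under 0.231 FPKM in every library. They included Ccr2, the receptor of CCL2 and CCL7, at 0.0937, 0.119 and 0.0925 FPKM with nanoparticles and at 0 with PBS. Ccr6, the receptor of CCL20, was at or under 0.0883 FPKM, and Cx3cr1 at or under 0.213 FPKM. Ccr7, a receptor of lymph node homing, rose with a log2 fold change of 0.43 (adjusted p = 0.00396, limma), tested only through its nanoparticle libraries. Ccr10 did not pass (log2 fold change 0.032, adjusted p = 0.81, limma), and its sign turned on the TPM scale (-0.083).

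Among the atypical receptors, which bind chemokines without G protein signalling, Ackr3 stood out. It was at 20.4, 20.1 and 21.1 FPKM with nanoparticles and at 2.12, 2.24 and 1.95 FPKM with PBS (log2 fold change 2.80, adjusted p = 9.53e-11, limma). The ligands known for ACKR3 are CXC chemokines, not the members described here. Ccrl2, listed as a relative of these receptors, did not pass (log2 fold change 0.12, adjusted p = 0.384, limma), and the other 3 genes were not tested.

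The sheddases of CX3CL1 fell. Adam10 was at 14.3, 14.04 and 13.9 FPKM with nanoparticles and at 45.7, 46.2 and 46.4 FPKM with PBS (log2 fold change -1.64, adjusted p = 1.14e-10, limma). Adam17 was at 29.0, 29.0 and 28.1 FPKM with nanoparticles and at 65.8, 66.2 and 64.9 FPKM with PBS (log2 fold change -1.17, adjusted p = 4.2e-10, limma). Both were therefore lower in every nanoparticle library while Cx3cl1 itself was slightly higher. Mmp9, a metalloproteinase that can cleave chemokines, had a log2 fold change of -0.67. In this list of sheddases, their regulators and other proteases, 6 of the 9 tested genes fell, 1 rose and 2 did not pass. Their median log2 fold change was -0.47, while over all tested genes 46% fell and the median was -0.058.

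Heparan sulfate is the sugar chain that holds secreted chemokines at cell surfaces. Of 17 tested genes for its core proteins and enzymes, 14 fell, 2 rose and 1 did not pass, with a median log2 fold change of -0.95. Over all tested genes 46% fell and the median was -0.058. Sdc2, the core protein syndecan-2, averaged 12.4 ± 0.314 FPKM with nanoparticles and 53.2 ± 0.783 FPKM with PBS (SD, n = 3 each). Hs2st1, a sulfotransferase, fell by 1.57 and Glce, the epimerase of the chain, fell by 1.51 on the log2 scale.

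Regulators known to act on chemokine genes included some that rose and some that fell, as did all tested genes, of which 40.5% rose and 46% fell. The 18 NF-kB genes divided into 10 that rose, 7 that fell and 1 that did not pass, with a median log2 fold change of 0.28. Tnfaip3, a feedback inhibitor, rose by 2.40 and Rela by 1.00, while Nfkb1 fell by 1.51 on the log2 scale. Of 10 interferon regulatory factor and STAT genes, 7 rose, 2 fell and 1 did not pass (median 1.24), with log2 fold changes of 4.48 for Irf7 and 2.73 for Stat2. Among cytokines that induce chemokines and their receptor chains, 3 of 13 tested genes rose, 9 fell and 1 did not pass (median -0.37). Of the 3 that rose, Il6 and Tnf were tested only through their nanoparticle libraries. Il6 was at 24.0, 20.8 and 26.0 FPKM with nanoparticles and at 0.128, 0.238 and 0.348 FPKM with PBS. The receptor chains Il6st and Il1r1 fell by 1.11 and by 1.39 on the log2 scale. Of 10 genes for proteins that bind or cut chemokine and cytokine mRNAs, 6 rose, 3 fell and 1 did not pass (median 0.25). Zfp36, whose product tristetraprolin binds AU-rich elements and promotes mRNA decay, averaged 78.1 ± 0.932 FPKM with nanoparticles and 9.28 ± 0.27 FPKM with PBS (SD, n = 3 each). Its relatives Zfp36l2 and Zfp36l1 rose by 0.59 and 0.52 on the log2 scale.

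Among 16 CXC and C class ligands, 8 were tested, of which 6 rose (background 40.5% of tested genes), 1 fell and 1 did not pass. Their median log2 fold change was 0.92. Of the 6 that rose, Cxcl3 and Cxcl9 were tested only through their nanoparticle libraries and were bound to come out higher, which also enters the median. Cxcl10 was at 64.5 ± 2.46 FPKM with nanoparticles and 4.85 ± 0.757 FPKM with PBS, Cxcl16 rose by 1.36 and Cxcl5 fell by 0.83 on the log2 scale.

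The 5 tested genes whose values lay nearest to those of Ccl2 over the 6 libraries, by Euclidean distance of centred log2(FPKM + 1), were Arl1, Psmc6, Khsrp, Spn and Clasrp. Their distances were 0.023 to 0.046 and their log2 fold changes 0.14 to 0.16.

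Markers were checked for the labelled cell type and for others. Of 9 epithelial markers 6 were tested, of which 5 rose (background 40.5% of tested genes). Krt8 and Krt18, keratins of simple epithelia, were at 342 to 343 and 667 to 710 FPKM with nanoparticles and at 212 to 216 and 510 to 521 FPKM with PBS. Epcam, Krt14 and Cldn7 were under 1 FPKM in every library, so the epithelial label rests on the other markers. Of 18 myeloid markers 14 were under 1 FPKM in every library, and the list summed to 44.8 to 50.9 FPKM with nanoparticles and 23.3 to 26.9 FPKM with PBS, mostly from Cd68 and Cd14. Of the 4 tested myeloid markers, Cd68, Mpeg1 and Csf1r rose, the last 2 tested only through nanoparticle libraries, and Cd14 fell. Ptprc, the pan-leukocyte marker, averaged 0.527 FPKM with nanoparticles and was at 0 with PBS. The macrophage markers Adgre1, C1qa, C1qb and C1qc were at 0 with PBS and averaged under 0.1 FPKM with nanoparticles. Other untested myeloid markers were higher than these. Mrc1 averaged 0.759 FPKM with nanoparticles and 0.0555 FPKM with PBS, Lyz2 0.284 and 0.0302 FPKM, and Fcgr1 0.286 and 0 FPKM. The 17 lymphoid markers summed to 3.39 to 3.88 FPKM with nanoparticles and 1.32 to 1.45 FPKM with PBS; Lck was the 1 tested, and it rose. Nkg7 and Klrb1c were at 0 in every library, while Gzmb averaged 0.338 FPKM with nanoparticles and was at 0 with PBS. The 12 stromal markers summed to 9.88 to 11.9 FPKM with nanoparticles and 41.3 to 41.4 FPKM with PBS, a sum carried by the 3 tested, Pdgfra, Pdgfrb and Cdh5, which fell. The other 9, among them Col1a2, Dcn and Pecam1, were at or under 0.525 FPKM in every library. Each was higher in all nanoparticle libraries than in any PBS library, as were 48.9% of all untested genes above 0. The part of these markers in the chemokine values was not tested.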

How the data were processed

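RNA from 6 libraries of 4T1 cells, 3 per group, was measured by mRNA sequencing after TRIzol extraction, per the labels' protocols. The deposited table holds FPKM values made by the authors. Its header names no unit, and FPKM was inferred from values that were not whole and from sums that differed between libraries but became nearly equal once multiplied by exonic length. STAR, featureCounts, GRCm38 and mm10 are named in the submitters' processing notes without version or role. The 701 features without a gene identifier (0.631% to 0.67% of summed FPKM) were left out. No unit of 1 read could be recovered: at most 1.77% of ratios of low values fell in any 1% bin. Depth is therefore unknown and no counting interval is given.

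Genes with at least 1 FPKM in 3 of 6 libraries were fitted on log2(FPKM + 1) with limma 3.58.1 (trend and robust settings, statmod 1.5.0, R 4.3.3), as nanoparticle minus PBS with no block for the replicate number. Benjamini-Hochberg adjustment of the two-sided p-values covered every tested gene, and calls were made under 0.05. Fold changes with this pseudocount of 1 understate the change of low genes. The step was tested on simulated data. Members below the filter have exact permutation tests over libraries. Named genes were all 10 members, the 3 tested genes with the smallest adjusted p in each list, and the 5 genes nearest to the most abundant member. Other genes (Ccl6, Ccl11, Ccl12, Ccr2, Ccr6, Cx3cr1 and markers) were named after their values were seen. The members and lists were chosen with earlier results of these data known. A few items that these rules would name are not reported here. Positions, lengths and transcripts came from GENCODE M21, matched for 99.5% of gene identifiers. Python 3.11.15, numpy 2.4.6, pandas 2.3.3, scipy 1.17.1, biopython 1.88 and matplotlib 3.10.9 were used. Alternatives were other pseudocounts, filters and scalings, a replicate block, a fit without the robust setting, and each library left out in turn.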

Additional observations from a re-analysis of the deposited data

How the results depend on the processing

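The members that passed were 6 of 7 tested, beside 9391 of 10863 genes. With no filter 7 of 10 members passed, beside 13672 of 20124 genes. With a filter at a mean of 0.1 FPKM 7 of 10 passed, beside 11159 of 13452 genes. On the TPM scale 5 of 10 members passed, beside 9890 of 11508 genes. The count over all genes (9391) lay between 8958 and 13672. Leaving out 1 library at a time gave 5 to 7 members passing, of 6 or 7 tested, and 8958 to 9028 genes, of 10610 to 10627 tested. Without any 1 nanoparticle library Ccl9 had too few libraries at 1 FPKM to be tested, which left 5 of 6 members, and where the 1 FPKM filter was kept its direction was fixed by that filter. With no filter its log2 fold change was 1.94 (adjusted p = 1.25e-07, limma). Ccl20, Ccl7 and Ccl5 kept their direction and passed in every alternative in which they were tested. Ccl2 and Cx3cl1 lost their calls on the TPM scale, with the values given above. Ccl25 passed with a replicate block (log2 fold change 0.46, adjusted p = 0.0465, limma), without the robust setting (adjusted p = 0.0463, limma) and without PBS library 2. The block moved the count over all genes to 9371. Same-numbered libraries had correlations of their deviations from -0.043 to 0.041 over 10863 genes. Whether libraries of the same number were made as pairs cannot be told from these values. No filter on low values raised the share of calls that were higher from 46.8% to 61.8%, and the TPM scale gave 40.2%. Of the named list genes, Ccr10 reversed on the TPM scale (log2 fold change -0.083) and without nanoparticle library 2, and Ccrl2 without PBS library 2. With 1 library left out at a time Ccr10 ranged from -0.094 to 0.15 and Ccrl2 from -0.014 to 0.25. Neither had passed, and the cause was not tested. Unknown depth limits what can be said of Ccl3, Ccl4 and Ccl17, which are near the floor.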
